A study of Homo sapiens with 9 samples.

Results

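The genes described here encode the enzymes of glycolysis, the transporters and kinases that feed and drain the pathway, and genes that cells switch on when oxygen is short. Of 43 genes listed, 37 had values, read by 67 of the 17474 probe sets with values in the deposited table. A probe set is the group of short probes with which an Affymetrix array reads a transcript. Members were found by matching the gene symbols of the platform annotation to the list, which was itself drawn up with earlier results of these data known. A pair of probe sets named SLC2A14 as well as SLC2A3 and were kept with SLC2A3. No probe set was named for SLC16A1, SLC16A3 or CA9 in the annotation, so these genes were not analysed here. The 7 probe sets of CA12, the 2 of EGLN3 and the 1 of ADM had no value on any array. Of the 67 probe sets, 3 were GAPDH controls for RNA quality, which leaves 64 that were tested. The 37 genes fall into 2 transporters, 11 genes of upper glycolysis, 6 of lower glycolysis, 4 of pyruvate and lactate metabolism, 4 oxygen sensors and factors, and 10 hypoxia targets.

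RNA came from HT1080, an established human fibrosarcoma line, grown in DMEM. The study asked how methylthioadenosine phosphorylase (MTAP), the enzyme that recycles the polyamine by-product methylthioadenosine, bears on gene expression. There were 3 arrays of cells without MTAP (MTAP-negative), 3 of cells with it (MTAP-positive) and 3 of MTAP-positive cells given 10 µM of the MTAP inhibitor MT-DADMe-ImmA for 48 hours before harvest (inhibitor-treated). The series calls the 3 arrays of a group biological replicates. The labels give neither the origin of the MTAP-positive cells nor the number of clones, and no vehicle-treated group was analysed here. Any difference between MTAP-negative and MTAP-positive cells therefore cannot be told apart from a difference between these 2 cultures.

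Glycolysis turns glucose into pyruvate. Its upper steps spend ATP to trap and split the sugar, and its lower steps return ATP. Pyruvate then goes to lactate through lactate dehydrogenase, or into mitochondria unless pyruvate dehydrogenase kinases block that route. When oxygen is low, prolyl hydroxylases of the EGLN family no longer mark hypoxia-inducible factor (HIF) for destruction. HIF, a pair of an alpha subunit and ARNT, then binds the letters ACGTG or GCGTG near its target genes. Many glycolytic genes are such targets, and the alpha subunit itself is controlled mainly as protein, which these arrays do not measure.

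The promoters of the 4 genes with the largest changes that have a single start in the RefSeq table, and of 2 genes that passed no test, are printed to show where the core letters lie. Each run holds the 250 bases before the annotated start on build GRCh38.p14, 5′ to 3′ on the gene's strand. Capitals mark ACGTG or GCGTG on either strand, and a palindrome CACGTG counts once. They are the promoters of ALDOC (chr17:28576896-28577145, minus strand), BHLHE40 (chr3:4979187-4979436, plus), PFKFB4 (chr3:48556804-48557053, minus), P4HA1 (chr10:73096867-73097116, minus), and, of the genes without a call, GAPDH (chr12:6535014-6535263, plus) and LDHB (chr12:21657843-21658092, minus).
ALDOC: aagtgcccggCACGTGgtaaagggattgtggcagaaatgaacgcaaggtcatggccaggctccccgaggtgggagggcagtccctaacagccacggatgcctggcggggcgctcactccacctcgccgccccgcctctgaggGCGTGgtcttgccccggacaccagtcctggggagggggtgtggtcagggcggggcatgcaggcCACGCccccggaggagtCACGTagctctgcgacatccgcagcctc
BHLHE40: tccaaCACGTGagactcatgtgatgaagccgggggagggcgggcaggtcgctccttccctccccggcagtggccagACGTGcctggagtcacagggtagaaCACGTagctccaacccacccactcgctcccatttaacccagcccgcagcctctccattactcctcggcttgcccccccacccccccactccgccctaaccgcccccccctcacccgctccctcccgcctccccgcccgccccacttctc
PFKFB4: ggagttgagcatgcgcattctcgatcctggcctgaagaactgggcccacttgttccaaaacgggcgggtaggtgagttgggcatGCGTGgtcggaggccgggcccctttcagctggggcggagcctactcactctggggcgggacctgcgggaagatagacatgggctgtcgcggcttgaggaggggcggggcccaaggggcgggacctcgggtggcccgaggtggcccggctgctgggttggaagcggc
P4HA1: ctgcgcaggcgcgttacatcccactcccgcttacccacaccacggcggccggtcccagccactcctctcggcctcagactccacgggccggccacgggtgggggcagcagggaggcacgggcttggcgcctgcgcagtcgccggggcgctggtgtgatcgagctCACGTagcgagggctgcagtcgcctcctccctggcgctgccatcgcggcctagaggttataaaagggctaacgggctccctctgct
GAPDH: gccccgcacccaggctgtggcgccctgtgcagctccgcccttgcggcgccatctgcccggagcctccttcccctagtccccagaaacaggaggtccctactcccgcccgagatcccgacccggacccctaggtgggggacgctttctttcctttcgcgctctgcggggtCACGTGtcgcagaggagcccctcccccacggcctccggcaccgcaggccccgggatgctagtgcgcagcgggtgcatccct
LDHB: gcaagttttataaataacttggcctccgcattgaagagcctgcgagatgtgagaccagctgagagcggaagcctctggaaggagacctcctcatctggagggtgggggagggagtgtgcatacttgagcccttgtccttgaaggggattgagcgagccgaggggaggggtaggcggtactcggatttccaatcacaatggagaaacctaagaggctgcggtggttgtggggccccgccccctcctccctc

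ALDOC held 4 such sites, BHLHE40 held 3, PFKFB4, P4HA1 and GAPDH held 1 each, and LDHB held 0. The RefSeq table matched 39 of the listed genes with 69 promoters. At least 1 site lay in 42 of those 69 (60.9%), against 43.2% of all 35116 promoters of the same length. The share was 65.4% for 26 promoters of genes that passed a test in any comparison and 55.9% for 34 promoters of genes with values that passed none. For ACGTG alone the shares were 37.7% of member promoters and 18.5% of all promoters. Several promoters of 1 gene can overlap, and a match of letters is a description of the sequence and not a measured binding site.

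The labels held at the MTAP probe sets, which read 3.86 to 5.02 on the log2 scale in MTAP-negative cells and 11.10 to 11.74 in both other groups. Of 10 mesenchymal markers 7 had values, with group means of MTAP-negative, MTAP-positive and inhibitor-treated cells that did not all move alike. VIM had 14.02, 13.93 and 14.0, LGALS1 had 13.6, 13.4 and 13.28, and CDH2 had 10.2, 10.4 and 10.7. Higher in both groups of MTAP-positive cells were FN1 at 10.81, 12.15 and 12.38, COL6A2 at 7.3, 8.62 and 8.95, COL6A1 at 9.26, 10.04 and 9.97, and SPARC at 12.5, 13.06 and 13.05, whose part in the results below was not tested. None of 22 epithelial, blood, endothelial, neural or liver markers had a value. Array medians ran from 8.24 to 8.38. RNA quality moved with the groups. For ACTB, the 5′ control minus the 3′ control, which is lower in degraded RNA, was -1.81, -2.17 and -3.52 in MTAP-negative cells. It was -1.33, -1.03 and -1.92 in MTAP-positive cells and -1.93, -0.88 and -2.09 with inhibitor. For the GAPDH controls the difference was -0.27, -0.51 and -1.06, then -0.17, -0.02 and -0.35, then -0.28, -0.08 and -0.32. MTAP-negative replicate 3 was the lowest array on both controls, and the other arrays of the groups overlapped.

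**Figure D1:**
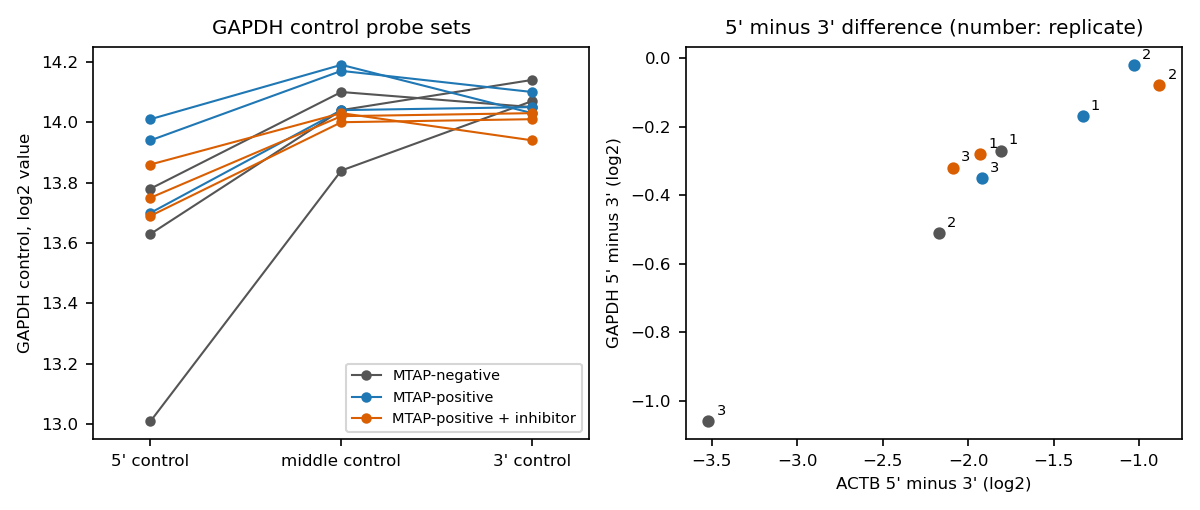
RNA quality by array. Left, log2 values of the 5′, middle and 3′ GAPDH control probe sets, with 1 line per array coloured by group. Right, the 5′ minus 3′ difference of GAPDH (y axis, log2) against that of ACTB (x axis, log2), numbered by replicate. MTAP-negative replicate 3 lies apart at -3.52 for ACTB and -1.06 for GAPDH.

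MTAP-positive cells had more RNA of 12 of the 37 genes than MTAP-negative cells, and less of 2 (limma, adjusted p below 0.05). ALDOC, a brain-type aldolase, stood out with a rise of 2.10 ± 0.12 on the log2 scale (SE, 3 arrays a group), or 4.30-fold. BHLHE40, NDRG1 and PFKFB4 rose by about 1, and MXI1, KDM3A, PFKL, GPI, P4HA1, ANKRD37, PDK1 and PGK1 rose by less. The hexokinase genes HK1 and HK2 were the 2 that fell. Over all 9452 genes tested, 15.1% passed, 9.83% higher and 5.31% lower. An array averages over a culture, so fewer cells with a transcript and less of it per cell cannot be told apart. The members' shares were 32.4% higher and 5.41% lower, and their median change was 0.28 against 0.02 over all genes. All arrays of a group lay on the same side of the other group for 24 of the 37 genes, 21 higher and 3 lower. Over all genes that held for 34.8%, 19.6% higher and 15.2% lower. With the ACTB difference as a covariate, 4 genes rose (ALDOC, NDRG1, KDM3A and PFKFB4) and 0 fell, 5.3% of all genes passed, and without MTAP-negative replicate 3 the counts were 9 and 0. When arrays were centred on their medians, 11 members rose and 2 fell, while the share of higher genes among all genes called moved from 64.9% to 46.0%.

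Inhibitor-treated cells had more RNA of 4 of the 37 genes than MTAP-positive cells without it, ALDOC, NDRG1, SLC2A3 and P4HA1. The changes were 0.98 ± 0.12 for ALDOC, 0.80 ± 0.12 for NDRG1, 0.79 ± 0.14 for SLC2A3 and 0.67 ± 0.13 for P4HA1. No member gene passed the limma test as lower at its probe set of highest mean. There, at an unadjusted p below 0.05, the counts were 10 higher and 5 lower. Other probe sets of HK2 (-0.98, adjusted p = 0.00275) and PGK1 (-0.60, adjusted p = 0.0242) did pass as lower. Of all genes, 10.6% passed, 4.63% higher and 5.95% lower. The members' share called in either direction, 10.8%, lay at that background, but all 4 calls were higher. The median change was 0.03 against -0.02. The groups did not overlap for 21 of the 37, 12 higher and 9 lower, against 34.8% of all genes, 15.6% higher and 19.1% lower. SLC2A3 and P4HA1 lost their calls without inhibitor replicate 3 (adjusted p = 0.0504 and 0.0527), the array whose omission took the share called over all genes to 2.41%. Other settings called up to 4 genes lower, LDHA among them.

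Inhibitor-treated cells against MTAP-negative cells gave 13 genes higher and 1 lower. The rises ran from 0.45 ± 0.13 for ANKRD37 to 3.08 ± 0.12 for ALDOC, which is 8.45-fold, and PGAM1 was the gene that fell (-0.36 ± 0.10, adjusted p = 0.0216). Of all genes 32.2% passed here, 17.3% higher and 14.9% lower, and the members' shares were 35.1% and 2.7%. The groups did not overlap for 28 of the 37 genes, 20 higher and 8 lower, against 52.7% of all genes, 26.9% higher and 25.8% lower. The median change was 0.27 for the members and 0.00 for all genes. With the ACTB difference as a covariate 10 members rose and 0 fell, and 23.3% of all genes passed. The 3 comparisons draw on the same 9 arrays, so each shares a group with the others and their counts are not independent. Whether a change differed between comparisons was not tested.

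**Figure D2:**
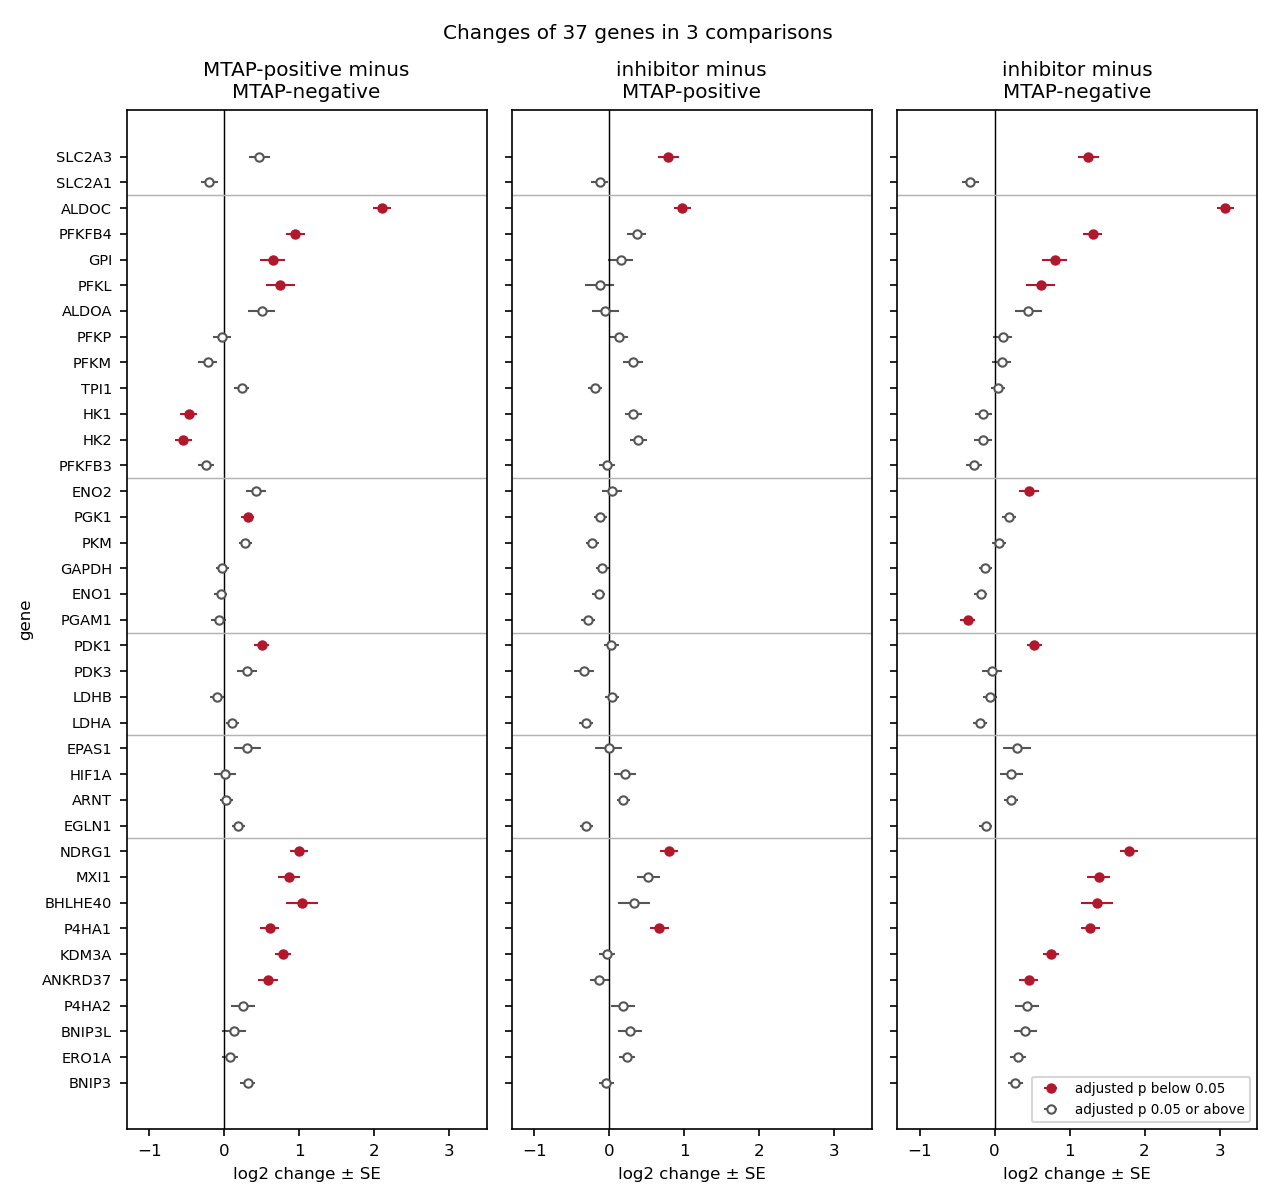
Log2 change with its SE (x axis) for 37 genes in rows, grouped by role, in each of 3 comparisons. Filled points passed at an adjusted p below 0.05 over all probe sets, with 14, 4 and 14 filled from left to right. ALDOC has the largest change in each panel.

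Glucose enters through the carriers SLC2A1 (GLUT1) and SLC2A3 (GLUT3), of which SLC2A3 has the higher affinity for glucose. SLC2A3 read 8.29, 8.60 and 8.28 in MTAP-negative cells, 8.97, 8.64 and 8.95 in MTAP-positive cells and 9.80, 9.49 and 9.64 with inhibitor. The groups did not overlap and formed 3 steps, though the first step did not pass (0.47 ± 0.14, adjusted p = 0.0526) and the step with inhibitor did (adjusted p = 0.0103). From MTAP-negative to inhibitor-treated cells SLC2A3 rose 2.38-fold (1.25 ± 0.14, adjusted p = 3.17e-04). These values are those of its probe set of highest mean. Of its 5 probe sets, 2 passed as higher with inhibitor against MTAP-positive cells, over changes from 0.07 to 0.79. Another that names SLC2A3 alone changed by 0.15, 0.13 and 0.28 in the 3 comparisons in the order given above. It passed in none (adjusted p = 0.512, 0.588 and 0.157). SLC2A1 read 8.95, 9.11 and 9.12, then 9.03, 8.73 and 8.83, then 8.83, 8.78 and 8.60. Its inhibitor-treated arrays lay below the MTAP-negative ones, by -0.32 ± 0.12, which did not pass (adjusted p = 0.06). That value passed under 7 of the alternatives, both rescalings among them, with an adjusted p of 0.038 after centring.

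Of the 11 genes of upper glycolysis, 4 rose and 2 fell from MTAP-negative to MTAP-positive cells, where 9.83% of all genes rose and 5.31% fell. The pathway begins with hexokinases, which phosphorylate glucose. HK1 read 11.49, 11.24 and 11.54 in MTAP-negative cells, 11.05, 10.83 and 10.97 in MTAP-positive cells and 11.34, 11.25 and 11.22 with inhibitor. MTAP-positive arrays were lower than both other groups, and HK1 fell there against MTAP-negative cells (-0.47 ± 0.11, adjusted p = 0.0249). HK2, the hexokinase that HIF is known to induce, read 9.53, 9.50 and 9.76, then 9.19, 9.09 and 8.89, then 9.47, 9.46 and 9.39. Here too the MTAP-positive arrays were the lowest, with no overlap, and the fall was -0.54 ± 0.12 (adjusted p = 0.0145). With inhibitor both hexokinases lay above MTAP-positive cells, HK1 by 0.32 (adjusted p = 0.106) and HK2 by 0.39 (adjusted p = 0.0633), and neither passed. The other HK2 probe set went another way. It read 7.65, 7.65 and 7.68, then 8.02, 7.75 and 7.98, then 7.11, 6.96 and 6.74, and fell with inhibitor against both MTAP-positive cells (-0.98 ± 0.12, adjusted p = 0.00275) and MTAP-negative cells (-0.72, adjusted p = 0.00225). Averaged over both probe sets, HK2 had a change of -0.14 from MTAP-negative to MTAP-positive cells (adjusted p = 0.36). The fall of HK2 was not called once MTAP-negative replicate 3 was left out (adjusted p = 0.0526), nor was that of HK1 without MTAP-negative replicate 1 or 3 or MTAP-positive replicate 2 or 3 (adjusted p from 0.0513 to 0.0842). Neither fall was called with the ACTB difference as a covariate.

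GPI, the isomerase that makes fructose phosphate, read 11.25, 11.24 and 10.74 in MTAP-negative cells, 11.95, 11.65 and 11.58 in MTAP-positive cells and 12.04, 11.86 and 11.73 with inhibitor. PFKL, the liver-type subunit of phosphofructokinase, read 8.39, 8.28 and 7.70, then 9.07, 8.65 and 8.88, then 8.96, 8.67 and 8.58. Both genes had their lowest value on MTAP-negative replicate 3, the array with the lowest 5′ to 3′ controls, and MTAP-negative arrays lay below all others. GPI rose 1.57-fold (0.65 ± 0.17, adjusted p = 0.031) and PFKL 1.68-fold (0.75 ± 0.19, adjusted p = 0.0322) between MTAP-negative and MTAP-positive cells. Without MTAP-negative replicate 3 the change was 0.48 for GPI (adjusted p = 0.0858) and 0.53 for PFKL (adjusted p = 0.0796). With the ACTB difference as a covariate neither rise was called. Over all alternatives the adjusted p of this comparison reached 0.231 for GPI and 0.224 for PFKL. Neither passed without MTAP-positive replicate 1 (adjusted p = 0.0899 and 0.0924), and PFKL did not without MTAP-negative replicate 2 or MTAP-positive replicate 3 (adjusted p = 0.0555 and 0.0793). Against MTAP-negative cells, inhibitor-treated cells had more GPI (0.80 ± 0.17, adjusted p = 0.00643) and more PFKL (0.62 ± 0.19, adjusted p = 0.0379). That call of PFKL was lost without MTAP-negative replicate 2 or 3, MTAP-positive replicate 3 or any inhibitor array, with an adjusted p of up to 0.124. Over all 18 alternatives it was kept in 11, and its adjusted p reached 0.168. The muscle-type and platelet-type subunits PFKM and PFKP passed no test. PFKP read 11.80, 11.45 and 11.78, then 11.68, 11.51 and 11.77, then 11.79, 11.82 and 11.75, with all groups overlapping, and PFKM differed by -0.22, 0.32 and 0.10 in the 3 comparisons in the order given above.

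PFKFB4 and PFKFB3 make and break the fructose bisphosphate that activates phosphofructokinase. PFKFB4 read 8.18, 8.0 and 8.14 in MTAP-negative cells, 9.11, 8.88 and 9.17 in MTAP-positive cells and 9.60, 9.41 and 9.24 with inhibitor. The groups formed 3 steps without overlap. PFKFB4 rose 1.93-fold at the first (0.95 ± 0.13, adjusted p = 0.00172), the second did not pass (0.36 ± 0.13, adjusted p = 0.0995), and the rise over both was 1.31 ± 0.13. PFKFB3 was lower in both other groups than in MTAP-negative cells, by -0.24 and -0.27, and neither value passed (adjusted p = 0.165 and 0.0857).

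Aldolases cleave the sugar. ALDOC read 7.93, 8.25 and 7.92 in MTAP-negative cells, 10.16, 10.21 and 10.04 in MTAP-positive cells and 11.04, 11.16 and 11.13 with inhibitor. No group overlapped another, and within groups its arrays spread by no more than 0.19 (SD). Its adjusted p was 2.44e-05 for MTAP-positive against MTAP-negative cells, 0.00248 for the inhibitor against MTAP-positive cells and 1.38e-06 over both steps, and it passed in each of 19 alternatives in all 3 comparisons. The muscle-type aldolase ALDOA read 12.98, 12.90 and 12.33, then 13.44, 13.09 and 13.19, then 13.35, 13.10 and 13.11. Its MTAP-negative arrays lay below all others, lowest on replicate 3. The difference from MTAP-positive cells, 0.50 ± 0.18, did not pass (adjusted p = 0.0876), but did in the paired fit with the replicate number as a block (adjusted p = 0.0365). TPI1, which interconverts the triose products, read 12.93, 12.87 and 12.79, then 13.20, 13.08 and 13.03, then 12.99, 12.92 and 12.82. Its MTAP-positive arrays were the highest, by 0.24 over MTAP-negative cells, with no call (adjusted p = 0.133).

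**Figure D3:**
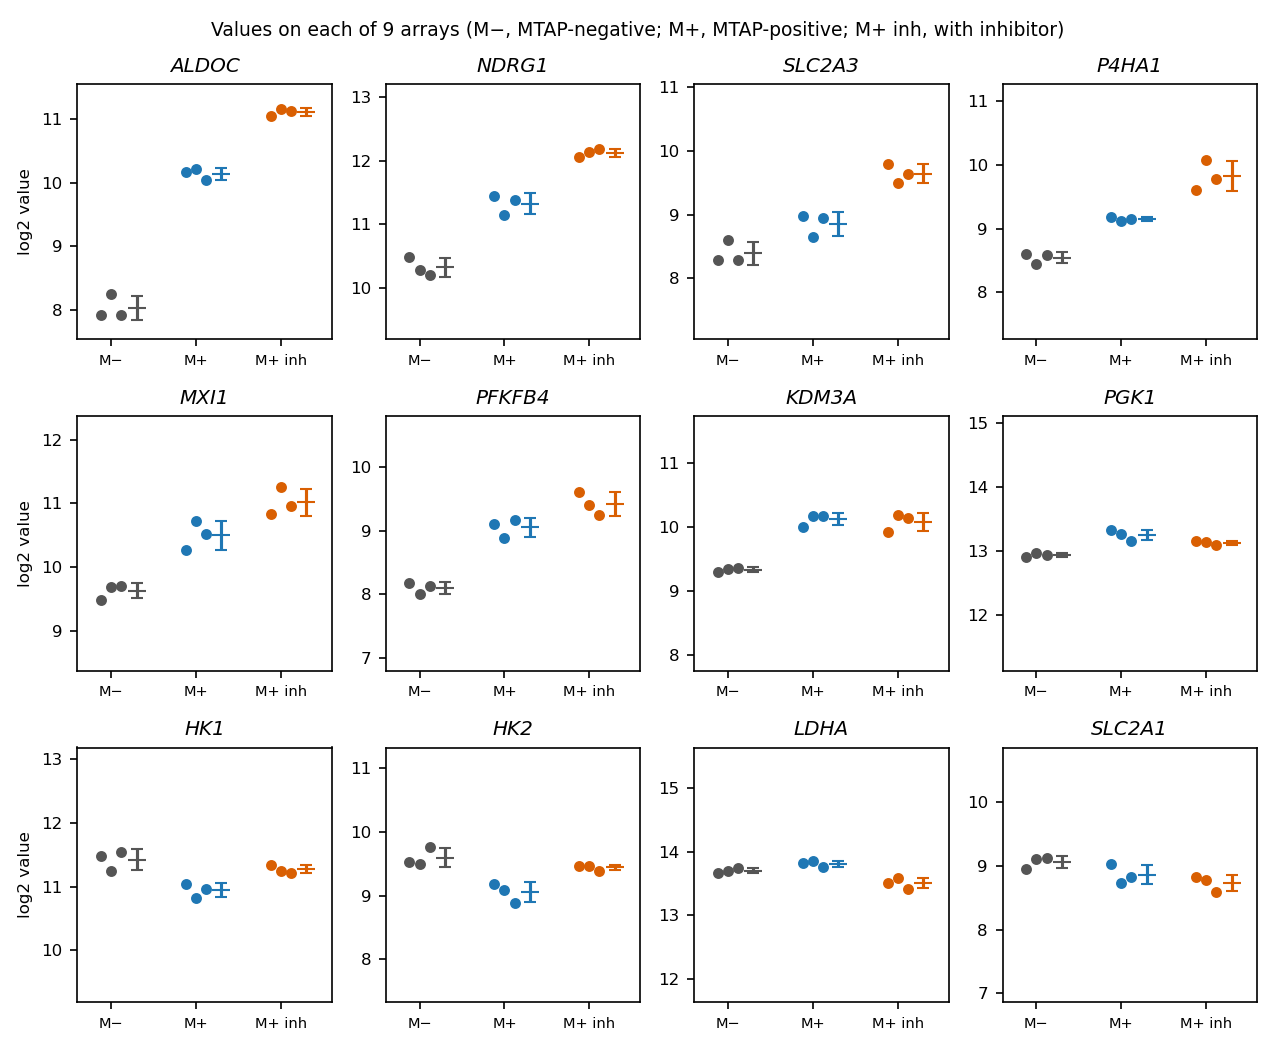
Log2 values of 12 genes on each of 9 arrays (points), with the group mean and SD beside them, for MTAP-negative (M−), MTAP-positive (M+) and inhibitor-treated cells (M+ inh). All panels span the same log2 range, centred on the gene. ALDOC, NDRG1, SLC2A3, P4HA1, MXI1 and PFKFB4 form 3 rising steps, while HK1 and HK2 are lowest in MTAP-positive cells.

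Of the 6 genes of lower glycolysis, 1 rose from MTAP-negative to MTAP-positive cells, and with inhibitor against MTAP-negative cells 1 rose and 1 fell. Of all genes 9.83% rose in the former, and 17.3% rose and 14.9% fell in the latter, so these counts lie near the background. With inhibitor against MTAP-positive cells 0 of the 6 passed at the probe set of highest mean. There 5 of the 6 lay lower without overlap and 0 higher, against 19.1% and 15.6% of all genes. Their median change was -0.13, against -0.02 over all genes. GAPDH, the dehydrogenase often used as a reference gene, read 14.31, 14.34 and 14.31 in MTAP-negative cells, 14.32, 14.32 and 14.25 in MTAP-positive cells and 14.22, 14.17 and 14.22 with inhibitor. Its inhibitor-treated arrays lay below the rest by about 0.1, and no test passed. PGK1, the kinase that returns the first ATP, read 12.91, 12.96 and 12.93, then 13.32, 13.26 and 13.16, then 13.15, 13.14 and 13.09. The groups did not overlap, with inhibitor-treated cells between the others. PGK1 rose 1.24-fold from MTAP-negative to MTAP-positive cells (0.31 ± 0.09, adjusted p = 0.0443), a call lost when any of the 9 arrays was left out (adjusted p from 0.0606 to 0.114) and after centring (adjusted p = 0.118). PGAM1, a phosphoglycerate mutase, read 12.84, 12.72 and 12.77, then 12.82, 12.61 and 12.68, then 12.49, 12.39 and 12.37. Inhibitor-treated arrays lay below both other groups, and its fall against MTAP-negative cells was lost without MTAP-negative replicate 1 or 3 or inhibitor replicate 2 or 3 (adjusted p from 0.0527 to 0.0786).

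The enolases differed in their calls. ENO2, the neuron-type enolase, read 8.84, 8.81 and 8.97, then 9.34, 9.53 and 9.03, then 9.22, 9.45 and 9.33. Both MTAP-positive groups lay above MTAP-negative cells without overlap, and ENO2 rose between MTAP-negative and inhibitor-treated cells (0.46 ± 0.14, adjusted p = 0.0293). Between MTAP-negative and MTAP-positive cells the value was 0.42 (adjusted p = 0.0649). The call of ENO2 with inhibitor was lost without MTAP-negative replicate 1 or 2 or inhibitor replicate 2 or 3 (adjusted p from 0.0755 to 0.0983). Over all 19 alternatives it was kept in 13, and its adjusted p reached 0.117. ENO1, the general enolase, read 13.35, 13.33 and 13.26, then 13.31, 13.23 and 13.27, then 13.19, 13.08 and 13.11, lowest with inhibitor, and passed no test. PKM, pyruvate kinase, read 13.20, 13.10 and 13.04, then 13.43, 13.38 and 13.40, then 13.12, 13.25 and 13.16. Its MTAP-positive arrays were above both other groups, by 0.28 over MTAP-negative cells (adjusted p = 0.0661), with no call.

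PDK1, a kinase that keeps pyruvate out of mitochondria, read 8.93, 8.87 and 8.81 in MTAP-negative cells, 9.41, 9.47 and 9.23 in MTAP-positive cells and 9.37, 9.44 and 9.38 with inhibitor. It was higher in both groups of MTAP-positive cells, without overlap. PDK1 rose 1.42-fold (0.50 ± 0.10, adjusted p = 0.0102) and then differed by 0.03 with inhibitor (adjusted p = 0.899). The call of that rise was lost with the ACTB difference as a covariate (adjusted p = 0.103). Its relative PDK3 read 6.65, 7.0 and 7.03, then 7.17, 7.36 and 7.05, then 6.89, 6.93 and 6.75, highest in MTAP-positive cells, with no call. The other PDK3 probe set went the other way, also with no call. It changed by -0.12 from MTAP-negative to MTAP-positive cells (adjusted p = 0.442) and by 0.15 with inhibitor against MTAP-positive cells (adjusted p = 0.392). LDHA, which makes lactate, read 13.66, 13.70 and 13.74, then 13.82, 13.85 and 13.76, then 13.51, 13.58 and 13.42. The groups did not overlap, and inhibitor-treated cells were lowest, by -0.31 ± 0.09 against MTAP-positive cells, with an adjusted p of 0.0605 that passed under 4 of 18 alternatives (range over all of them 0.00859 to 0.223). LDHB, the subunit that favours the return to pyruvate, read 13.53, 13.39 and 13.57, then 13.35, 13.42 and 13.45, then 13.43, 13.47 and 13.41, and its groups overlapped.

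None of the 4 oxygen sensors and factors with values passed the limma test at the probe set of highest mean. At an unadjusted p below 0.05 EGLN1 was lower with inhibitor than in MTAP-positive cells, and ARNT was higher with inhibitor than in MTAP-negative cells. HIF1A, the main HIF alpha subunit, read 12.78, 13.17 and 12.79 in MTAP-negative cells, 12.65, 13.09 and 13.05 in MTAP-positive cells and 13.11, 13.12 and 13.19 with inhibitor. Its change between MTAP-negative and MTAP-positive cells was 0.02 ± 0.15 (adjusted p = 0.956), and those groups overlapped. Its inhibitor-treated arrays lay above the MTAP-positive ones, by 0.21 with no call (adjusted p = 0.411), and overlapped the MTAP-negative ones. EPAS1, another alpha subunit, read 9.77, 9.42 and 9.93, then 10.27, 9.72 and 10.05, then 10.13, 9.76 and 10.11, again with overlap. EGLN1, the oxygen sensor that is itself a HIF target, read 9.75, 9.78 and 9.77, then 9.96, 9.96 and 9.94, then 9.69, 9.68 and 9.58. Here the groups did not overlap, with the highest values in MTAP-positive cells and the lowest with inhibitor. The difference with inhibitor, -0.31 ± 0.09, missed the threshold (adjusted p = 0.0508) and passed in the paired fit with the replicate block (adjusted p = 0.0477). ARNT, the shared partner of the alpha subunits, differed by 0.03, 0.19 and 0.22 in the 3 comparisons.

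**Figure D4:**
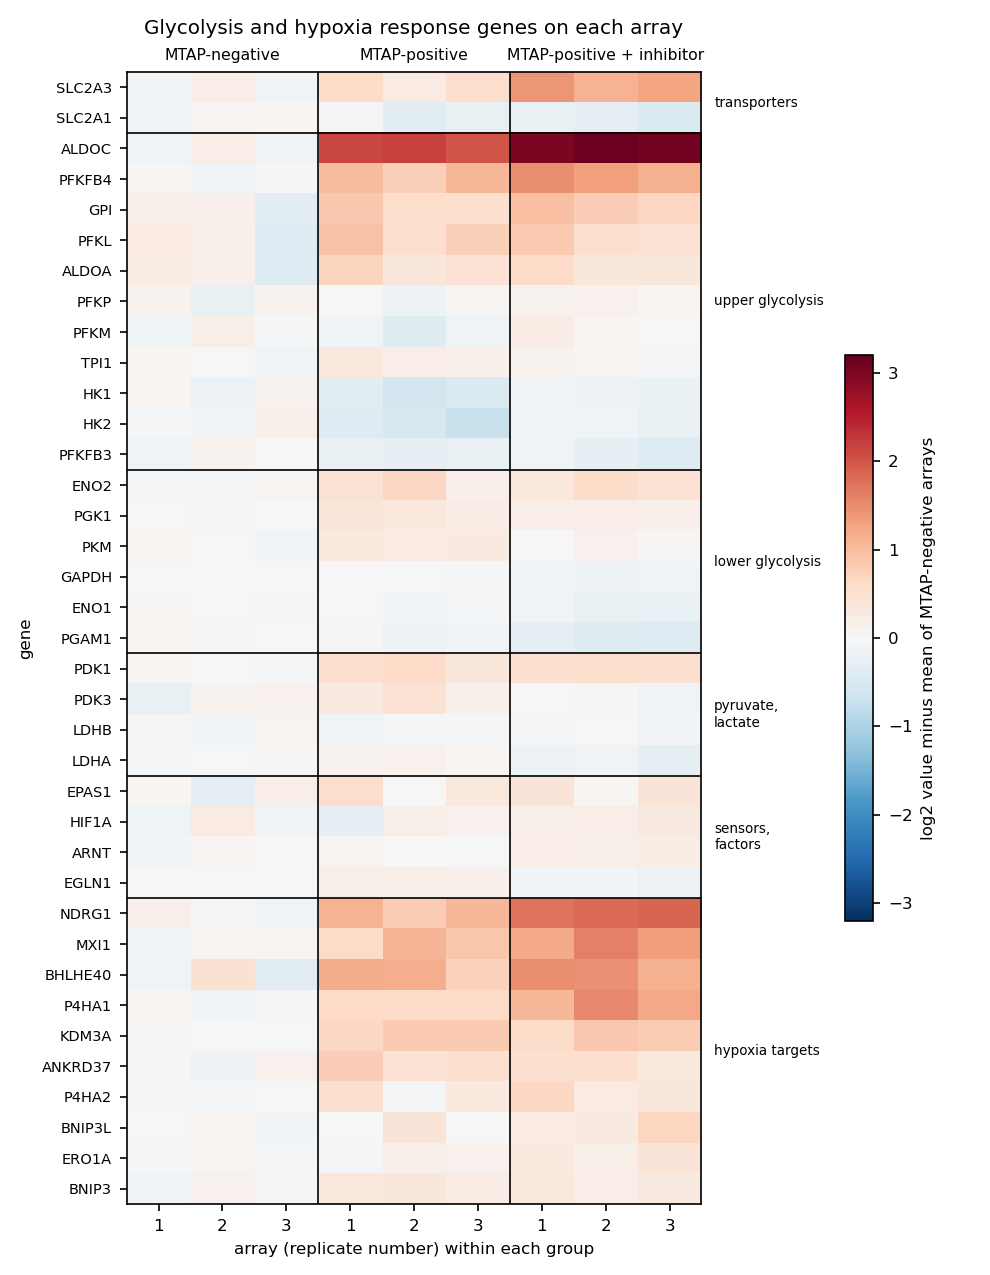
Heat map of 37 genes (rows, grouped by role) on 9 arrays (columns, by group and replicate). Colour gives the log2 value minus the gene's mean over the MTAP-negative arrays, from blue (lower) to red (higher). ALDOC and NDRG1 are the reddest rows, and the rows of sensors and factors stay pale.

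Of the 10 hypoxia targets with values, 6 rose from MTAP-negative to MTAP-positive cells, 2 of them rose again with inhibitor, and none fell. Of all genes 9.83% rose and 5.31% fell at the first step, and 4.63% rose and 5.95% fell with inhibitor. NDRG1, a stress-response gene induced by hypoxia, read 10.49, 10.28 and 10.21 in MTAP-negative cells, 11.44, 11.14 and 11.39 in MTAP-positive cells and 12.06, 12.13 and 12.18 with inhibitor. P4HA1, a subunit of the enzyme that hydroxylates collagen, read 8.60, 8.44 and 8.59, then 9.18, 9.12 and 9.15, then 9.61, 10.08 and 9.77. Both genes formed 3 steps without overlap. NDRG1 rose 2.0-fold and then 1.74-fold (adjusted p = 9.76e-04 and 0.00526), and P4HA1 rose 1.52-fold and then 1.59-fold (adjusted p = 0.0127 and 0.0124). Over both steps the rise was 3.48-fold for NDRG1 and 2.42-fold for P4HA1. The first step of P4HA1 was 0.52 with the ACTB difference as a covariate (adjusted p = 0.11).

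MXI1, an antagonist of MYC, read 9.49, 9.68 and 9.71, then 10.26, 10.72 and 10.52, then 10.84, 11.25 and 10.96. It too formed 3 steps, with a called rise of 0.87 ± 0.15 (adjusted p = 0.00588). The step with inhibitor, 0.52 ± 0.15, missed the threshold (adjusted p = 0.0564) and passed in the paired fit with the replicate block (adjusted p = 0.0143). BHLHE40, a transcriptional repressor, read 8.22, 8.83 and 8.0, then 9.54, 9.52 and 9.10, then 9.85, 9.82 and 9.49. MTAP-negative arrays lay below the rest, and inhibitor replicate 3 lay inside the MTAP-positive range. BHLHE40 rose 2.05-fold from MTAP-negative to MTAP-positive cells (1.04 ± 0.22, adjusted p = 0.0131). With the ACTB difference as a covariate that change was 0.75 (adjusted p = 0.119), and that of MXI1 was 0.81 (adjusted p = 0.0536).

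KDM3A, a histone demethylase, read 9.30, 9.35 and 9.36, then 10.01, 10.17 and 10.18, then 9.93, 10.19 and 10.15. It rose 1.73-fold (0.79 ± 0.11, adjusted p = 0.00174) from MTAP-negative to MTAP-positive cells and then differed by -0.04 with inhibitor (adjusted p = 0.867). ANKRD37, a small ankyrin-repeat protein, read 7.76, 7.57 and 7.86, then 8.51, 8.20 and 8.24, then 8.24, 8.27 and 8.04. It also kept apart from MTAP-negative cells in both other groups. ANKRD37 rose by 0.59 ± 0.13 (adjusted p = 0.0159), a call lost when MTAP-negative replicate 2 was left out (adjusted p = 0.054). That call was also lost with the ACTB difference as a covariate (adjusted p = 0.0858). The call with inhibitor against MTAP-negative cells (adjusted p = 0.0244) was lost in 4 of 9 fits without 1 array, without MTAP-negative replicate 1 or 2 or inhibitor replicate 1 or 2 (adjusted p from 0.0544 to 0.082).

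The other 4 hypoxia targets passed no test at their probe set of highest mean. BNIP3, a mitochondrial protein of mitophagy, read 11.06, 11.30 and 11.10, then 11.49, 11.52 and 11.40, then 11.48, 11.37 and 11.43. Its relative BNIP3L read 10.51, 10.61 and 10.44, then 10.53, 10.93 and 10.50, then 10.77, 10.81 and 11.21. ERO1A, an oxidase of the endoplasmic reticulum, read 10.18, 10.30 and 10.17, then 10.15, 10.38 and 10.35, then 10.54, 10.41 and 10.64. For all 3 genes the inhibitor-treated arrays lay above the MTAP-negative ones without overlap. The differences were 0.27, 0.41 and 0.31, with adjusted p of 0.0659, 0.074 and 0.0504. In that comparison the other probe sets of BNIP3 and BNIP3L did pass as higher, each by 0.53 (adjusted p = 0.0159 and 0.0281). That of ERO1A did not (0.24, adjusted p = 0.278). P4HA2, the other collagen hydroxylase subunit, differed by 0.25, 0.18 and 0.43 in the 3 comparisons.

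Isozymes of the same step often differed in their calls, although whether their changes differed was not tested. At the probe set of highest mean, ALDOC, ENO2, PFKL, PFKFB4, PDK1 and P4HA1 each passed in at least 1 comparison as higher. ALDOA, ENO1, PFKM, PFKP, PFKFB3, PDK3 and P4HA2 passed in none there. For P4HA2 this rests on the probe set read. Its other probe set was higher than in MTAP-negative cells by 0.91 in MTAP-positive cells (adjusted p = 0.00543) and by 0.64 with inhibitor (adjusted p = 0.0128). Over the 37 genes, read at the same probe sets, 20 passed in no comparison and 3 (ALDOC, NDRG1 and P4HA1) rose in all 3. Another 8, ANKRD37, BHLHE40, GPI, KDM3A, MXI1, PDK1, PFKFB4 and PFKL, were called higher in both groups of MTAP-positive cells against MTAP-negative cells and not with inhibitor against MTAP-positive cells.

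Several probe sets read 17 of the 37 genes, and they did not always move alike. Of the 64 probe sets, 21 rose and 2 fell between MTAP-negative and MTAP-positive cells, where 14.8% of all probe sets passed, 10.0% higher and 4.78% lower. With inhibitor against MTAP-positive cells 5 rose and 2 fell (background 10.3%, 4.86% higher and 5.48% lower), and against MTAP-negative cells 22 rose and 2 fell (background 30.7%, 17.3% higher and 13.3% lower). Below, with MTAP means from MTAP-negative to MTAP-positive cells. Of the 4 PGK1 probe sets 3 rose with MTAP, by 0.31, 0.62 and 0.89, and the other fell with inhibitor against MTAP-positive cells (-0.60 ± 0.14, adjusted p = 0.0242). BNIP3, P4HA2, ARNT and EGLN1 each had another probe set that rose with MTAP, by 0.71 (adjusted p = 0.00851), 0.91 (adjusted p = 0.00543), 0.77 (adjusted p = 0.0102) and 0.75 (adjusted p = 0.0186). Those of ARNT and EGLN1 had MTAP-negative means of 6.07 and 6.35, and a further SLC2A3 probe set, which rose by 1.12, had 5.88. All 3 lie below the 6.64 on which the deposited table had been filtered. Such a probe set entered the table through the groups where it was brighter, so its change supports nothing, and without these 3 the count that rose with MTAP is 18, and that with inhibitor against MTAP-negative cells is 20. The ARNT probe set also read 6.735 on each of the 3 inhibitor-treated arrays, a coincidence of values found for 5 probe sets in that group. Of the 2 probe sets that SLC2A3 shares with SLC2A14, 1 rose in both steps, by 0.85 (adjusted p = 0.0113) and 0.64 (adjusted p = 0.0446). The other passed in neither (0.40, adjusted p = 0.184, and 0.07, adjusted p = 0.862).

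**Figure D5:**
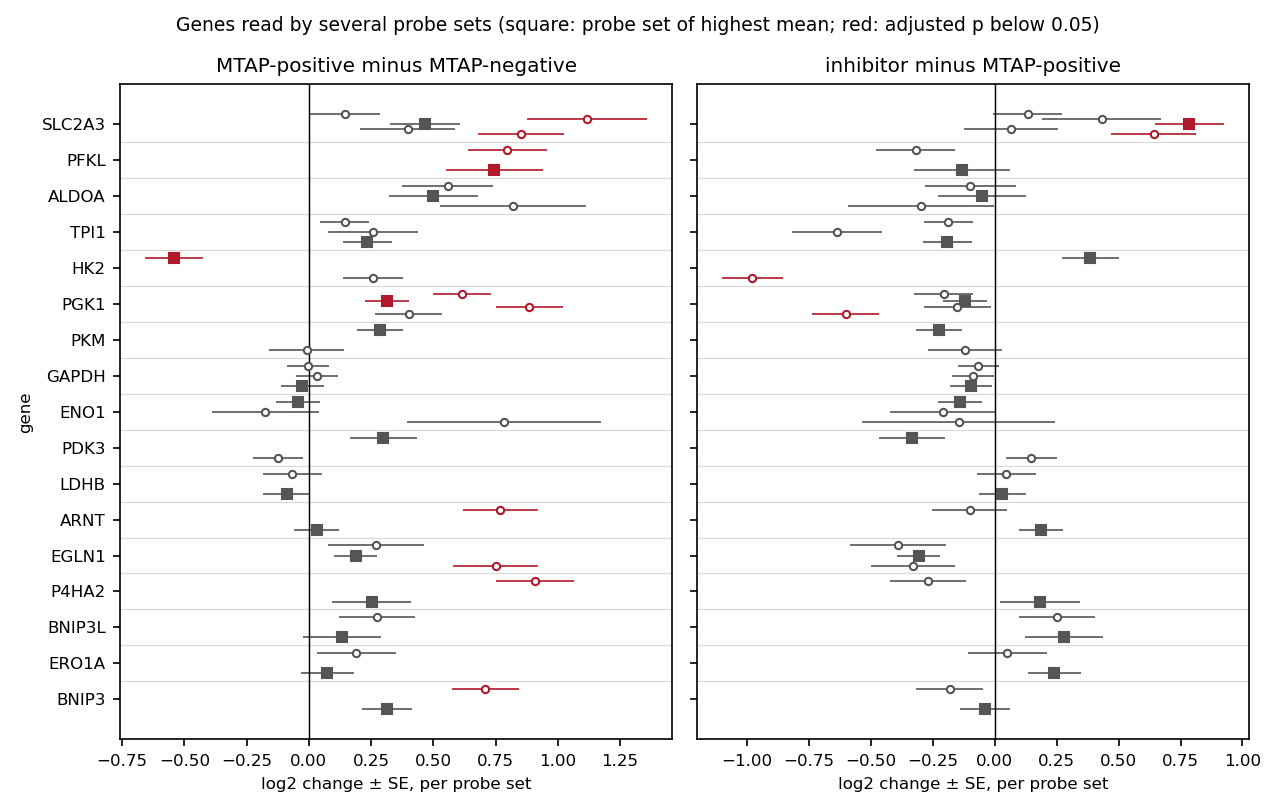
Log2 change with its SE (x axis) of each probe set of the 17 genes read by several, for MTAP-positive minus MTAP-negative (left) and inhibitor minus MTAP-positive cells (right). Squares mark the probe set of highest mean, and red marks an adjusted p below 0.05. The HK2 probe sets point in opposite directions in both panels, at -0.54 and 0.26 on the left and 0.39 and -0.98 on the right.

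Related genes outside the list were read for context. Of 47 other genes of glycolysis and its branches, 22 had values, and 3 rose (13.6%) and 4 fell (18.2%) with MTAP, against 9.83% and 5.31% of all genes, with a median change of -0.03. SLC2A12, a further glucose carrier, read 6.37, 6.68 and 6.03 in MTAP-negative cells, 7.78, 8.16 and 8.40 in MTAP-positive cells and 8.39, 8.52 and 8.41 with inhibitor. Its MTAP-negative mean, 6.36, lay below the filter level of 6.64, so it entered the table through the groups where it was higher. It is counted among the 3 that rose, but that call supports nothing. PDP1, the phosphatase that opposes PDK1, rose by 0.73 ± 0.13 with MTAP (adjusted p = 0.00659) and again with inhibitor by 0.58 ± 0.13 (adjusted p = 0.0238), the only 1 of the 22 called there, against 10.6% of all genes. That second call was lost in 5 of 9 fits without 1 array, those without MTAP-positive replicate 1 or 2 or any inhibitor array (adjusted p up to 0.105). PGM1, a phosphoglucomutase, rose by 0.36 (adjusted p = 0.0464), which was lost in 12 of 18 alternatives, among them each fit without 1 array except MTAP-positive replicate 2. The pyruvate carrier subunit MPC1 (-0.58), the phosphoglucomutase PGM2 (-0.57) and the bisphosphatase TIGAR (-0.56) fell. All 3 calls were lost with the ACTB covariate, at an adjusted p of 0.0571 to 0.14. That of PGM2 was also lost without MTAP-negative replicate 1 or 3 or MTAP-positive replicate 1 or 3, and that of TIGAR without MTAP-negative replicate 2 or MTAP-positive replicate 1 or 3. Inhibitor-treated against MTAP-negative cells gave 5 higher (22.7%, against 17.3% of all genes), PDP1 and the transketolase TKT (0.59) among them. The 5 also count SLC2A12, whose call again supports nothing, so that share is not read against the background. Lower were 6 (27.3%, against 14.9%), with TIGAR (-0.78), PGAM5 (-0.71) and the pyruvate dehydrogenase component PDHX (-0.64) the largest. PGAM5 is a phosphatase and not an enzyme of glycolysis, though the list counts it. The call of TKT was lost without MTAP-negative replicate 3 or inhibitor replicate 1 or 3 and when its probe sets were averaged (adjusted p up to 0.0947).

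Of 59 other hypoxia response genes, 43 had values, and 9 rose (20.9%) and 2 fell (4.65%) with MTAP, against 9.83% and 5.31% of all genes, with a median change of 0.18. DDIT4, a stress-induced brake on mTOR signalling, read 8.39, 7.99 and 7.92 in MTAP-negative cells, 9.60, 9.40 and 9.47 in MTAP-positive cells and 10.37, 10.49 and 10.43 with inhibitor. Like ALDOC and NDRG1 it formed 3 steps without overlap, and it rose at both, by 1.39 ± 0.13 and 0.94 ± 0.13 (adjusted p = 4.17e-04 and 0.00423). VEGFA, the angiogenic growth factor, rose by 1.22 ± 0.14 with MTAP (adjusted p = 8.53e-04), and its change with inhibitor against MTAP-positive cells was -0.02. STC2, a secreted glycoprotein, rose by 0.79 ± 0.14 (adjusted p = 0.00648). The transferrin receptor TFRC (-0.78 ± 0.11, adjusted p = 0.00246) and the haem oxygenase HMOX1 (-0.57 ± 0.13, adjusted p = 0.0208) fell, and the call of HMOX1 was lost with the ACTB covariate and without MTAP-negative replicate 1 or 2 or MTAP-positive replicate 3 (adjusted p up to 0.116). With inhibitor against MTAP-positive cells 5 of the 43 rose and none fell by limma, DDIT4, KDELR3 (0.75), LOX (0.74), ETS1 (0.53) and FAM162A (0.43), against 4.63% of all genes higher and 5.95% lower. The call of FAM162A (adjusted p = 0.0425) was lost in 10 of 18 alternatives, including each fit without 1 array except MTAP-negative replicate 3, with an adjusted p up to 0.129. That of ETS1 (adjusted p = 0.0252) was lost in 5 of 19, without MTAP-positive replicate 1 or 3 or inhibitor replicate 1 or 3 and when its probe sets were averaged, with an adjusted p up to 0.9. KDELR3 is a retrieval receptor of the secretory pathway, and LOX crosslinks collagen. Against MTAP-negative cells 19 rose (44.2%) and 2 fell (4.65%) with inhibitor, against 17.3% and 14.9% of all genes, with DDIT4 (2.32), VEGFA (1.20) and STC2 (0.93) the largest rises and TFRC (-1.05) and CSRP2 (-0.55) the falls.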

How the data were processed

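HT1080 RNA was hybridised to 9 Affymetrix arrays, 3 a group. The authors deposited log2 values made with RMA; the submitters' processing notes name it and no version of it. RMA corrects background, equalises the distributions of the arrays and summarises each probe set, which can shrink a shift shared by most genes. Of 54675 rows 37201 held no value, and each of the other 17474 reached 6.64, the log2 of 100, on at least 3 arrays, so dim genes had already been left out. The precision is limited by 3 arrays a group, and every p-value measures the spread between these arrays.

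After 8 control probe sets were left out, a linear model with 3 groups was fitted to 17466 probe sets with limma 3.58.1 (R 4.3.3), and p-values were adjusted by Benjamini and Hochberg over all of them within a comparison, at 0.05. A gene was read at its single-symbol probe set of highest mean, which gave 9452 genes beside MTAP. The fit was tested on simulated data.

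Values on every array are given for member genes that passed with a log2 change of at least 0.5, and for up to 3 members a role that passed in none, by highest mean; HK1, PGK1, ENO2 and PGAM1 were added after their values were seen. Of the 2 lists of related genes, up to 3 a list, comparison and direction are named, largest first; ETS1 and FAM162A were added after their values were seen. The members and lists were chosen with earlier results of these data known. Same-numbered arrays deviated together in MTAP-negative and MTAP-positive cells (r = 0.28, 0.22 and 0.25) and in MTAP-positive and inhibitor-treated cells (0.70, 0.59 and 0.32), but not in MTAP-negative and inhibitor-treated cells (0.20, 0.01 and -0.01). The pairing comes from these correlations and not from the labels, and the replicate number as a block is an alternative. The 19 alternatives also covered scaling, filters, probe sets, RNA quality, array weights and each array left out. Promoters come from RefSeq (GRCh38.p14); SLC16A1, SLC2A3, NDRG1 and BNIP3L had no match there. Protein sequences were not used here.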

Additional observations from a re-analysis of the deposited data

How the results depend on the processing

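No value of the 32 calls on member genes turned its sign under the 19 alternatives; 525 of the recomputed values kept their call and 66 lost it. With the ACTB 5′ minus 3′ difference as a covariate, 4 members were higher and 0 lower in MTAP-positive against MTAP-negative cells, and 0 were lower with inhibitor against MTAP-negative cells. With probe sets of suffix _s_at or _x_at, which can read several transcripts, left out, 20 members could be read: 6 were higher in MTAP-positive against MTAP-negative cells, 1 higher and 2 lower with inhibitor against MTAP-positive cells, and 8 higher and 0 lower with inhibitor against MTAP-negative cells, where 16.2%, 12% and 33.2% of 6694 genes were called. Among these, ARNT was read at its probe set with an MTAP-negative mean of 6.07, and was called higher against MTAP-negative cells (0.77 and 0.67). TPI1, 1 of the 2 lower (-0.64, adjusted p = 0.0462), was read at a probe set with an inhibitor-treated mean of 6.57. Both means lie below the filter level of 6.64, so these calls support nothing. The first comparison gave 0 lower with only its 2 groups fitted and 1 lower with the mean of a gene's probe sets. For inhibitor against MTAP-positive cells, 1 was lower with the replicate block, 2 with array weights, 2 with the 40th percentile filter, 1 with the mean of probe sets and 4 with a trended, robust spread. For inhibitor against MTAP-negative cells, 2 were lower after centring, 2 after a further quantile normalisation, 2 with array weights, 2 with the filter, 3 with the mean of probe sets and 4 with the trended, robust spread. The cause of these moves was not tested, except that fewer genes were read without shared probe sets and fewer samples entered with 2 groups.

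Leaving out each array in turn gave 9 to 12 higher and 0 to 2 lower in the first comparison, 2 to 5 higher and 0 lower in the second, and 10 to 16 higher and 0 to 2 lower in the third. Over all genes the share called in these fits ran from 8.6% to 17.4%, from 2.41% to 10.2% and from 21.5% to 36.1%. In the paired fit, with the replicate number as a block, the counts were 13 higher and 2 lower, 5 higher and 1 lower, and 16 higher and 1 lower, with 21.6%, 16.0% and 38.2% of all genes called against 15.1%, 10.6% and 32.2% without the block. In the first 2 comparisons it changed the calls of ALDOA, MXI1 and EGLN1. In the third, where numbers did not pair, it called ALDOA, P4HA2 and ERO1A as well. Values are relative within each probe set, no detection calls were used, and the smallest change called for a member gene was 0.31 on the log2 scale (PGK1).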
